A study of Mus musculus with 3 samples.

Results

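The laminins and other basement membrane proteins are followed here at the RNA level in the kidney of mice without Fgfrl1. The set holds 10 genes by name: the laminin alpha chain genes Lama1, Lama2, Lama4 and Lama5, the beta chain gene Lamb2, the gamma chain gene Lamc1, the nidogen genes Nid1 and Nid2, and the heparan sulphate proteoglycan genes Agrn (agrin) and Hspg2 (perlecan). Every non-control probe that the array files name for one of them was taken, whatever its value. This gave 17 of 41174 probes, for 9 genes, and 26 of 43379 spots on each array. No probe carried the name Hspg2 (0 probes).

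RNA was compared between Fgfrl1-/- embryos and their wildtype littermates, both on the C57BL/6 background and both at E12.5, when the first nephron precursors form. Each genotype was sampled as 3 pools of 6 to 9 whole kidney rudiments, and 1 Fgfrl1-/- pool and 1 wildtype pool were read together on each of 3 Agilent arrays of 60-base probes. The Fgfrl1-/- RNA always carried the green dye Cy3 and the wildtype RNA the red dye Cy5, with 0 dye-swapped arrays, so an effect of the dye and an effect of the genotype cannot be told apart. Fgfrl1-/- mice lack the receptor in every tissue, and a pool holds all cell types of the rudiment together.

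Basement membranes are thin sheets of extracellular matrix on which epithelia rest and which also surround vessels, muscle fibres and nerves. A laminin molecule joins an alpha, a beta and a gamma chain, and laminins assemble into a network at the cell surface. Type IV collagen forms another network, which nidogens, perlecan and agrin connect with the laminins. Cells bind the sheet through integrins and dystroglycan. In the embryonic kidney, basement membrane surrounds the ureteric bud, and new basement membrane is laid down when mesenchyme turns into the epithelium of a renal vesicle.

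All values are log2 ratios of Fgfrl1-/- over wildtype after normalization, unless a signal level is named. A probe was called changed at an adjusted p below 0.05 in limma, a linear model with variances moderated across probes, with adjustment over all 41174 probes. Of these, 119 were called higher and 164 lower in Fgfrl1-/- kidneys. Without array 2, and likewise without array 3, 0 probes of the whole array were called in limma, although 1965 and 1539 were higher and 1747 and 1602 lower at an unadjusted p below 0.05. Fgfrl1 itself had ratios of -1.21, -1.51 and -1.83 on arrays 1, 2 and 3, a mean of -1.52 (adjusted p = 0.0332 in limma), and the deleted gene was thus lower on every array. The sources used here do not say whether its probe lies inside the deleted part. Arrays 2 and 3 shared a slide, and array 1 came from a different one. Across all probes the ratios of arrays 2 and 3 had a correlation of r = 0.713, whereas array 1 had r = 0.106 with array 2 and r = 0.222 with array 3. This describes probes, which are not independent replicates.

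Among the laminins, nidogens and agrin, 1 of 17 probes was called higher and 0 of 17 lower, beside 0.289% and 0.398% of all probes (0.687% in either direction). The probe called higher belonged to Lamb2. At an unadjusted p below 0.05 in limma, 4 of the 17 were higher and 1 was lower, while 7.69% and 8.2% of all probes met that threshold. The 4 include both brighter probes of Lama2. All probes include many dim ones, and a refit kept the 24902 well above background on all 3 arrays in at least 1 channel. There 2503 probes were higher and 2646 lower at that threshold, with 3 and 1 among the members. In 5 of 17 probes the Fgfrl1-/- pool lay above its wildtype partner on all 3 arrays (19% of all probes did), in 4 of 17 it lay below on all 3 (19.2%), and the other 8 had mixed signs. The median over the 17 probes was 0.032, and over all probes 0.0037.

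The 13 probes that were well above background in both channels on every array cover all 9 genes. Apart from Lamb2, the 12 of them had means between -0.22 and 0.42, and every 95% interval from limma ended within 0.654 of 0. A change larger than that on the log2 scale was therefore outside the intervals of these probes under the reported setting. Other settings gave other ratios, and the brightest Lama2 probe had a mean of 0.60 with the scanner's ratio.

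**Figure D1:**
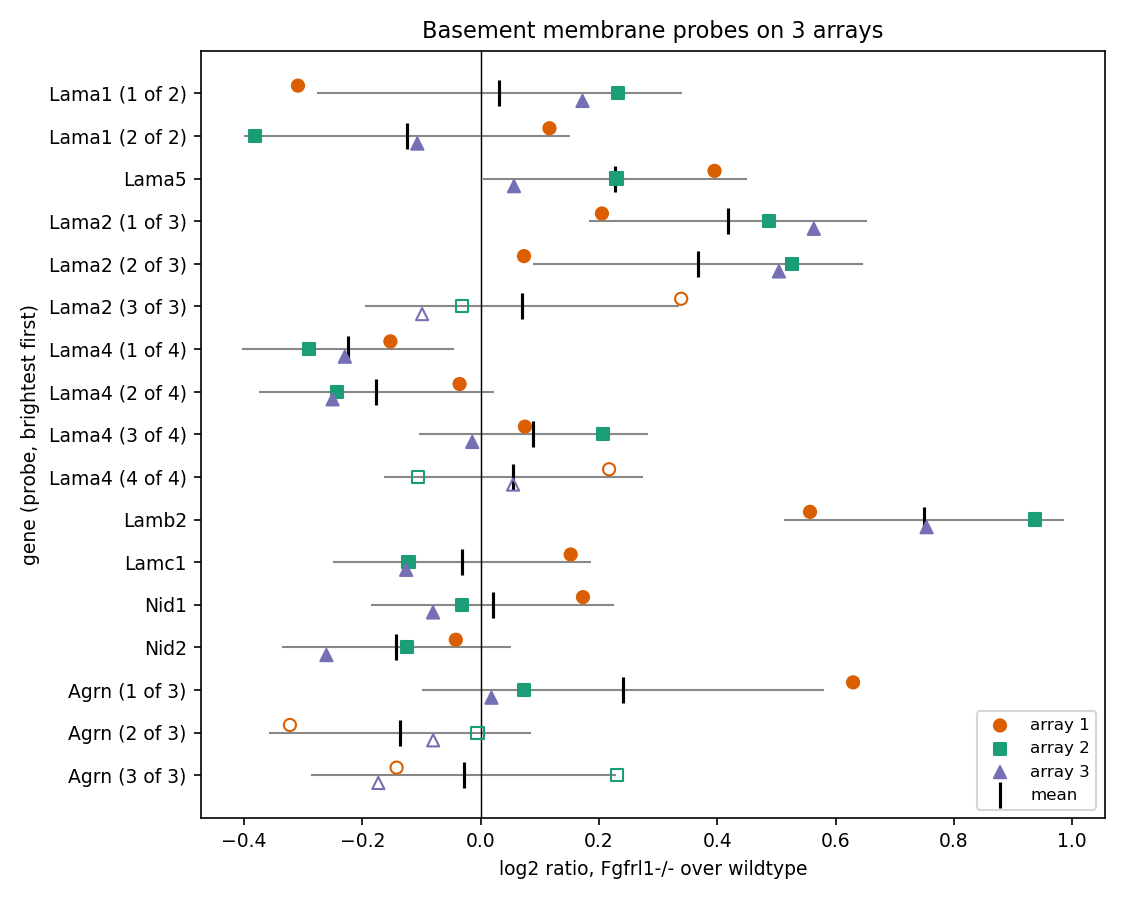
Log2 ratio of Fgfrl1-/- over wildtype for the 17 probes of 9 basement membrane genes, with 1 symbol per array, the mean as a vertical tick and the 95% interval from limma as a horizontal line. Open symbols mark probes that were not well above background in both channels on all 3 arrays. The Lamb2 symbols lie between 0.56 and 0.94 and its mean lies farthest from 0, although single arrays of Agrn (0.63) and Lama2 (0.56) reach into that range.

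**Figure D2:**
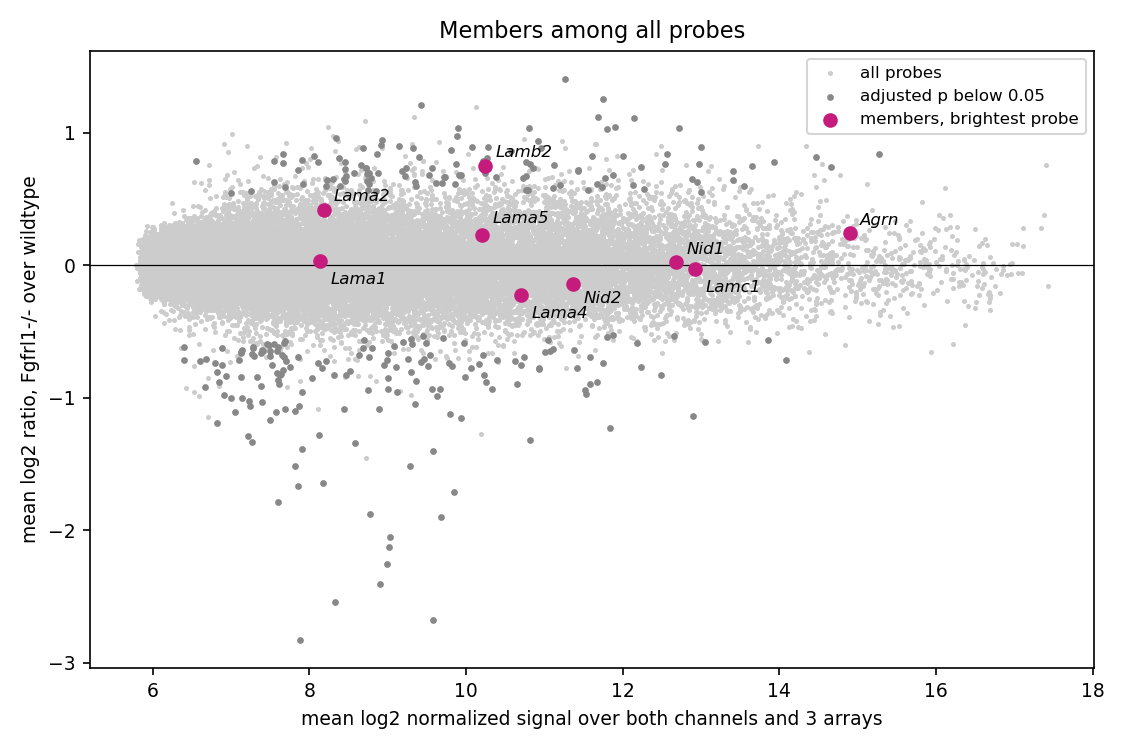
Mean log2 ratio against mean log2 normalized signal for all 41174 probes (light grey), those with an adjusted p below 0.05 in limma (dark grey) and the brightest probe of each of the 9 genes (pink). Lamb2 lies among the called probes above 0, at 0.75, and the other 8 genes lie within the grey cloud of probes that were not called.

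The sequence on the array that measures Lamb2 is shown because it carries the change that was called. It lies on chromosome 9, plus strand, chr9:108347961-108348020 in mm8, the mouse build of the array files, and is printed 5′ to 3′ as the files give it.
Lamb2 probe: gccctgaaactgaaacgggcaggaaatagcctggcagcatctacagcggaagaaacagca

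Lamb2 encodes a laminin beta chain that is known from the mature filtration barrier of the glomerulus and from the neuromuscular junction. Its ratios were 0.56, 0.94 and 0.75 on arrays 1, 2 and 3. The normalized log2 signal was 10.80, 10.59 and 10.51 in the Fgfrl1-/- pools and 10.24, 9.66 and 9.75 in the wildtype pools. Every Fgfrl1-/- pool lay above every wildtype pool, and the distance was smallest on array 1. The mean ratio was 0.75 ± 0.19 (SD, n = 3 arrays), which is 1.68-fold, with a 95% interval from 0.51 to 0.99 and an adjusted p of 0.0488 in limma. More Lamb2 RNA per cell and a larger share of cells that make it cannot be told apart in whole rudiments.

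This adjusted p lies just under the threshold. Lamb2 was higher in Fgfrl1-/- kidneys under all 17 other ways of processing the arrays that were tried, with means from 0.50 to 0.85. It was called under only 7 of them. All of them reuse the same arrays, and several change only the error or the set of probes, so that the mean could not move. Without array 2 its mean was 0.66 (adjusted p = 0.355 in limma) and without array 3 it was 0.75 (adjusted p = 0.485). Without array 1 it was 0.85 (adjusted p = 2.38e-05 in limma), in a fit that called 3494 of all 41174 probes higher. The mean within the slide of arrays 2 and 3 was thus 0.85, and the single value of the other slide was 0.56.

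**Figure D3:**
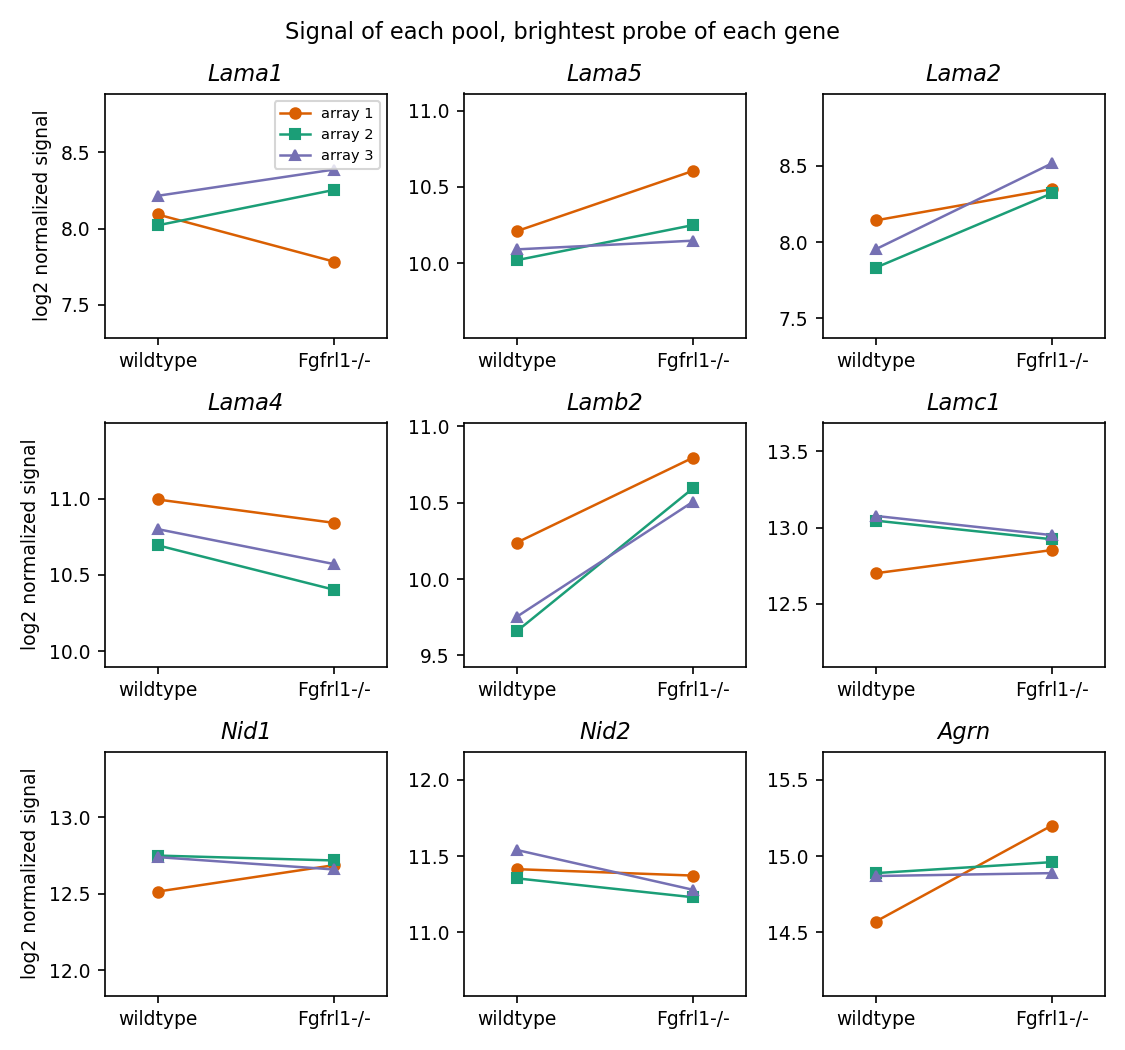
Normalized log2 signal of each wildtype and Fgfrl1-/- pool for the brightest probe of each of 9 genes, with a line joining the pools of 1 array. The lines of Lamb2, Lama2, Lama5 and Agrn rise on all 3 arrays and those of Lama4 and Nid2 fall on all 3, whereas Lama1, Lamc1 and Nid1 have lines in both directions.

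Lamc1 encodes the gamma chain found in most laminins, including those that hold the Lamb2 chain. Its ratios were 0.15, -0.12 and -0.13, with array 1 on one side of 0 and arrays 2 and 3 on the other. The mean was -0.03 ± 0.16 (SD, n = 3), with an adjusted p of 0.918 in limma. The Lamb2 ratio exceeded the Lamc1 ratio on 3 of 3 arrays, by 0.78 ± 0.34 (SD, n = 3). With 3 arrays the exact 2-sided sign-flip test cannot go below 0.25, which was its p here (0.607 after adjustment over the 17 pairs of probes compared).

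Lama2, the alpha chain gene best known from the basement membrane of skeletal muscle and peripheral nerve, had the next largest mean. Both of its probes that were above background are shown, since they match separate stretches of the gene. They share no run of more than 7 bases and lie 6426 bases apart. Both read the same pools on the same arrays, so they are not independent measurements of the genotypes. The first lies at chr10:26673839-26673898 and the other spans chr10:26680324-26682334, where the match is split by an intron, both on the minus strand in mm8.
Lama2 probe 1: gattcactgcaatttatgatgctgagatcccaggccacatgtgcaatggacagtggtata
Lama2 probe 2: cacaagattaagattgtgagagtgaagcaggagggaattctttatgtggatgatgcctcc

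Probe 1 of Lama2 had ratios of 0.20, 0.49 and 0.56 on arrays 1, 2 and 3. Probe 2 had 0.07, 0.53 and 0.50. On both probes all 3 arrays lay above 0, with array 1 lowest. The means were 0.42 ± 0.19 and 0.37 ± 0.26 (SD, n = 3), and neither passed the test over all probes (adjusted p = 0.119 and 0.201 in limma). The difference between them was 0.05 ± 0.09 (SD, n = 3, exact sign-flip p = 0.5).

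Without array 1 both Lama2 probes were called higher, at 0.53 (adjusted p = 0.000444) and 0.52 (adjusted p = 0.000478) in limma. Of all 41174 probes, 3494 were called higher and 4172 lower in that fit. With the slide in the fit, where array 1 has no replicate, the Lama2 means were 0.37 and 0.29. The call on Lama2 therefore depends on how array 1 is treated. A dim probe of Lama2 had 0.34, -0.03 and -0.10, and was well above background on 1 array in the Fgfrl1-/- channel and on 0 arrays in the wildtype channel. It showed no direction, with a 95% interval from -0.20 to 0.33 (adjusted p = 0.830 in limma).

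Probe 1 of Lama2 was printed 10 times on each array, which shows the spread between spots of the same hybridization. On array 1 the 10 spots ran from 0.0059 to 0.53, with an SD of 0.16. On array 2 the 10 spots ran from 0.41 to 0.59 (SD 0.070), and on array 3 the 6 spots without an outlier flag ran from 0.46 to 0.65 (SD 0.071). Every spot lay above 0. Spots of 1 array share their RNA and count as 1 replicate.

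**Figure D4:**
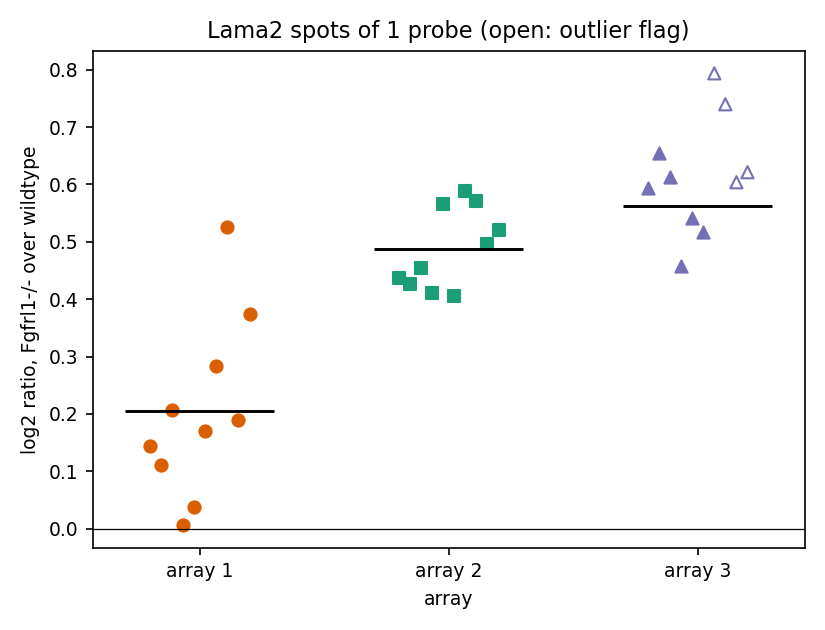
Log2 ratio of Fgfrl1-/- over wildtype for each of the 10 spots of Lama2 probe 1 on each array, with the mean of the spots used as a horizontal line. Open symbols on array 3 carry an outlier flag and were left out. The spots of array 1 spread from 0.0059 to 0.53, and those of arrays 2 and 3 all lie above 0.4.

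Lama5 encodes the alpha chain that predominates in the epithelial basement membranes of the maturing kidney. Its 1 probe had ratios of 0.40, 0.23 and 0.06. All were above 0, with array 3 closest to it, and the signals of the pools overlapped between genotypes. The mean was 0.23 ± 0.17 (SD, n = 3), with an adjusted p of 0.308 in limma. It was at 0.27 with the slide in the fit, where array 1 has no replicate. It turned to -0.03 where the arrays were centred on their median without loess. The position that the files give for this probe covers 15 of its 60 bases.

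Lama1 encodes the alpha chain of the early embryonic laminin. Its brighter probe, whose match spans chr17:67722621-67723583 on the plus strand in mm8 and is split by an intron, had ratios of -0.31, 0.23 and 0.17. The dimmer one, at chr17:67711346-67711405, had 0.12, -0.38 and -0.11. The probes moved in opposite directions on every array. Their means were 0.03 ± 0.30 and -0.12 ± 0.25 (SD, n = 3), with adjusted p-values of 0.946 and 0.676 in limma, so no difference was detectable with 3 arrays. The sign of the brighter probe also turned under several settings. The difference between Lama1 and Lama5 was -0.20 ± 0.44 (SD, n = 3, exact sign-flip p = 1).

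Lama4 encodes the alpha chain of vessels and mesenchyme and was measured with 4 probes. A pair of its sequences are shown because they overlap and are not independent measurements. Capitals mark the 29 bases that they share. The first lies at chr10:38795404-38795463 and the second spans an intron at chr10:38794642-38795432, both on the plus strand in mm8.
Lama4 probe 1: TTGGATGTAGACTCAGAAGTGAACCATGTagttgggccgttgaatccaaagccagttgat
Lama4 probe 2: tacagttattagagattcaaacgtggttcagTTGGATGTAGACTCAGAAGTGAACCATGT

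Probe 1 of Lama4 had ratios of -0.15, -0.29 and -0.23, and probe 2 had -0.04, -0.24 and -0.25. Both lay below 0 on all 3 arrays. The means were -0.22 ± 0.069 and -0.18 ± 0.12 (SD, n = 3), with adjusted p-values of 0.218 and 0.373 in limma. Among the 17 probes, only probe 1 of Lama4 was lower at an unadjusted p below 0.05 in limma. Without array 1 both were called lower in limma, at -0.26 (adjusted p = 0.0263) and -0.25 (adjusted p = 0.0328). That fit called 4172 of all 41174 probes lower.

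The other Lama4 probes did not follow them. Probe 3, at chr10:38784413-38784472, had ratios of 0.07, 0.21 and -0.01, a mean of 0.09 ± 0.11 (SD, n = 3, adjusted p = 0.671 in limma). Probe 1 lay below probe 3 on 3 of 3 arrays, by -0.31 ± 0.16 (SD, n = 3, exact sign-flip p = 0.25, the smallest possible). A dim probe at chr10:38743584-38743643, well above background on 1 array for Fgfrl1-/- and 0 for wildtype, had ratios of 0.22, -0.11 and 0.05, with a 95% interval from -0.16 to 0.27 (adjusted p = 0.836 in limma). The 3 brighter probes of Lama4 thus disagreed in sign, although probe 3 was at -0.04 under median centring and at -0.05 with the scanner's own ratio.

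The nidogens link the laminin and type IV collagen networks. Nid1 had ratios of 0.17, -0.03 and -0.08, a mean of 0.02 ± 0.13 (SD, n = 3, adjusted p = 0.949 in limma). Nid2 had -0.04, -0.12 and -0.26, a mean of -0.14 ± 0.11 (SD, n = 3, adjusted p = 0.461). Nid2 was below 0 on all 3 arrays and under all 17 other settings, but it was called under 0 of them. Several of those settings leave the mean of a probe as it was, and all reuse the same arrays. Nid1 exceeded Nid2 on 3 of 3 arrays, by 0.16 ± 0.063 (SD, n = 3, exact sign-flip p = 0.25).

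Agrn encodes agrin, a heparan sulphate proteoglycan of the glomerular basement membrane that also clusters acetylcholine receptors at the nerve-muscle contact. Of its 3 probes only the one at chr4:155009125-155009184, minus strand in mm8, was above background throughout. Its ratios were 0.63, 0.07 and 0.02. The mean of 0.24 ± 0.34 (SD, n = 3, adjusted p = 0.480 in limma) rested on array 1, and without that array it was 0.05. The probe was at 0.34 with the slide in the fit, where array 1 has no replicate, and turned to -0.28 under median centring. Among the 259 probes within 0.5 log2 units of its signal, the SD of the ratio was 0.369 on array 1 against 0.259 and 0.206 on arrays 2 and 3. The dim Agrn probes had means of -0.14 and -0.03.

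Perlecan was looked for by its description, since no probe is named Hspg2. The probe listed as M77174, at chr4:136842554-136842612 in mm8, had ratios of 0.63, -0.11 and -0.06, a mean of 0.15 ± 0.41 (SD, n = 3, adjusted p = 0.734 in limma). As for Agrn, array 1 stood apart from arrays 2 and 3. A second probe described as perlecan, AK078248, had a mean of 0.03 ± 0.14 (SD, n = 3, adjusted p = 0.901), but the files place it on chromosome 13, whereas RefSeq has Hspg2 on chromosome 4, so it is not taken as a measurement of that gene. Neither counts among the 17 probes.

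**Figure D5:**
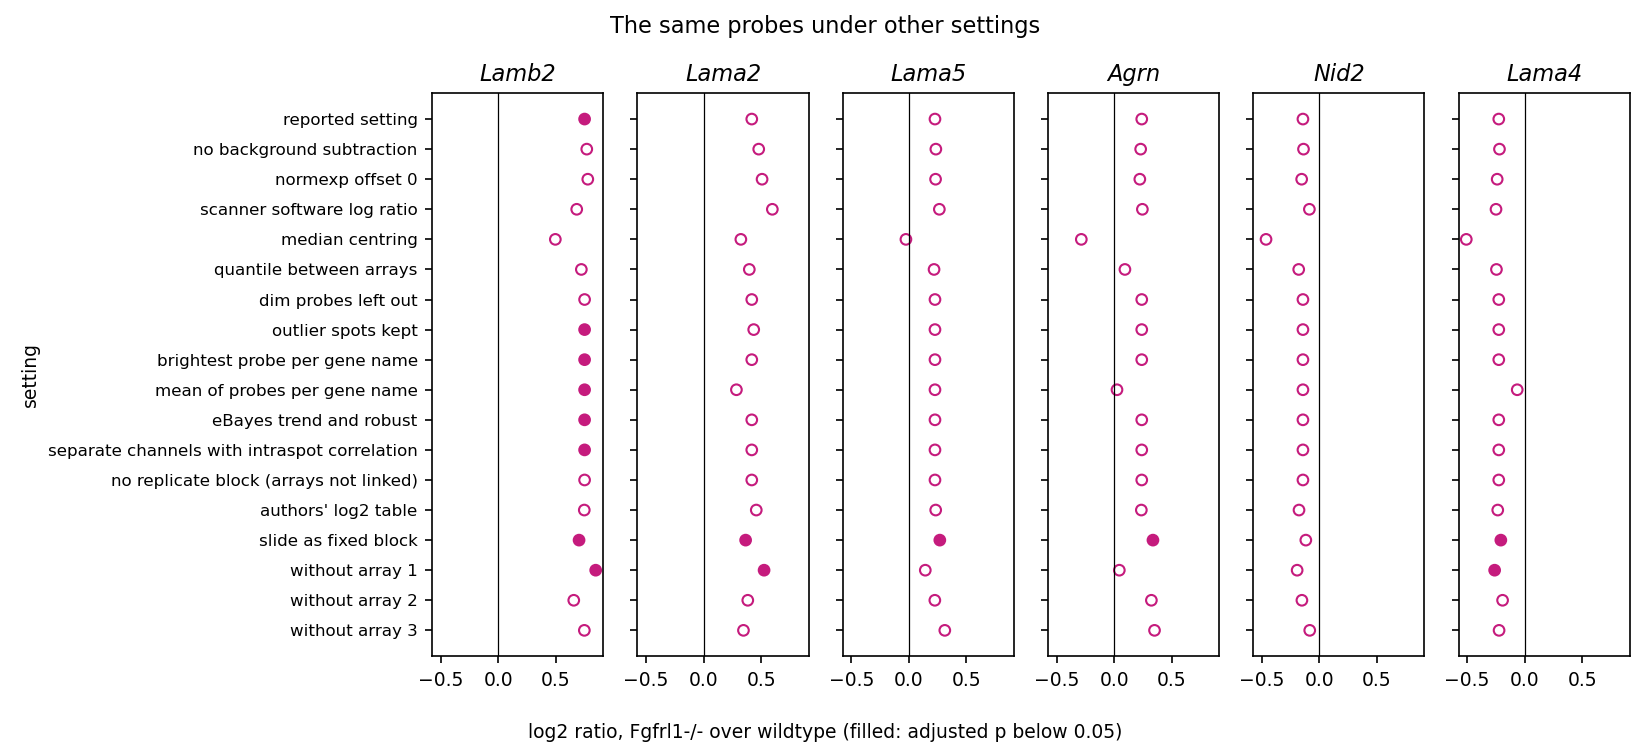
Mean log2 ratio of Fgfrl1-/- over wildtype for the brightest probe of 6 genes under the reported setting and 17 others, with filled symbols where the adjusted p in limma was below 0.05. Lamb2 stays above 0 in every row, between 0.50 and 0.85, and is filled in the reported setting and in 7 of the others.

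The partners of these proteins were examined with lists of other genes, each gene taken by its brightest probe. Of 5 laminin chains outside the set that had a probe, 0 were called in limma. Only 2 of the 5 were well above background in both channels on every array, so the list says little about the others. The one with the largest mean was Lamb1-1, the beta chain gene paired with Lamc1 in early laminins, at 0.23, -0.43 and -0.34, a mean of -0.18 ± 0.36 (SD, n = 3, adjusted p = 0.631 in limma). Of 8 type IV, XV and XVIII collagen genes, 0 were called, with means from -0.16 to 0.19, the highest being Col4a4 at 0.19 (adjusted p = 0.308). The medians of these lists were -0.04 and 0.03, beside 0.0037 over all probes. At an unadjusted p below 0.05 Col4a4 was the only one of these 13 genes.

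Of 13 other basement membrane components, 1 was called higher and 0 lower (4 higher and 0 lower at an unadjusted p below 0.05), with a median of 0.05. It was Smoc2, a secreted calcium-binding matrix protein, with ratios of 0.81, 1.16 and 0.86, a mean of 0.95 ± 0.19 (SD, n = 3, adjusted p = 0.0385 in limma) or 1.93-fold. Of 14 basement membrane receptors, 0 were called higher and 1 lower (2 and 3 at an unadjusted p below 0.05), with a median of -0.02. It was Itga8, the integrin alpha chain of the metanephric mesenchyme that binds nephronectin, with ratios of -0.71, -0.80 and -0.82, a mean of -0.78 ± 0.057 (SD, n = 3, adjusted p = 0.0346). The fall in Itga8 corresponds to 1.71-fold. Both genes moved the same way on all 3 arrays. Without array 2 or without array 3 their means ran from 0.84 to 0.99 for Smoc2 and from -0.77 to -0.75 for Itga8, and neither was called. In the paper, quantitative PCR found Itga8 lower in Fgfrl1-/- kidneys at E12.5 and at every other stage it tested.

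Of 5 genes for the glycosylation of dystroglycan, the non-integrin laminin receptor, 0 were called (2 higher at an unadjusted p below 0.05) and the median was 0.22. The largest mean was that of Large, a glycosyltransferase that builds the laminin-binding sugar, at 0.42 ± 0.20 (SD, n = 3, adjusted p = 0.124 in limma). Of 10 genes for crosslinking and turnover of the matrix, 0 were called (4 higher at an unadjusted p below 0.05), the median was 0.17 and 6 were above 0 on all 3 arrays. Mmp2, which encodes a gelatinase that cleaves type IV collagen, had the largest mean, 0.67 ± 0.18 (SD, n = 3, adjusted p = 0.0584).

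The rudiments differed in their markers of cell types at the same time. Of 10 stromal markers, 2 were called higher, Pdgfra at 1.02 and Col1a1 at 0.84 (adjusted p = 0.0274 and 0.0416 in limma), and 7 were above 0 on all 3 arrays. At an unadjusted p below 0.05 there were 6 higher and 1 lower. The lower one, named after its values were seen, was Tcf21, at -0.77, -0.32 and -0.34. The summed normalized signal of the list, in which bright probes weigh most, ran from 149600 to 188300 in the Fgfrl1-/- pools and from 101300 to 111400 in the wildtype pools. The stromal sum was thus higher in Fgfrl1-/- beside the higher Lamb2 and Smoc2, and its part in those values was not tested. Under the 17 other settings Pdgfra ran from 0.60 to 1.06 and was called under 11. Col1a1 ran from 0.29 to 0.94 and was called under 8, with its lowest value under median centring (adjusted p = 0.852 in limma). In the paper, quantitative PCR at E12.5 found no higher level of Col1a1 in Fgfrl1-/- kidneys. The same held for Tcfcp2l1 and Cxcl12, the other up-regulated genes that the paper retested. Lamb2, Smoc2 and Pdgfra were not among the genes it retested.

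Of 10 renal vesicle markers, 7 were called lower and all 10 were below 0 on all 3 arrays, with a median of -1.33. The 7 were Wnt4, Lhx1, Fgf8, Dll1, Dkk1, Bmp2 and Hes5, and the mean farthest from 0 was that of Wnt4, at -2.40. Except for Ccnd1, every gene of this list is among those the paper reported as lowered from these same arrays. The direction, median and sum of the list were thus largely known beforehand and are no separate evidence. Bmp2 was well above background in Fgfrl1-/- on 1 of 3 arrays only, so its mean of -0.88 depends on the background handling and was -2.54 with the scanner's ratio. Their list summed to between 5739 and 7542 in the Fgfrl1-/- pools and between 12110 and 14670 in the wildtype pools. Of 10 markers of cap mesenchyme, 2 were called lower, Cited1 at -0.78 and Gdnf at -0.83 (adjusted p = 0.0442 and 0.0421 in limma). The summed level of these markers was 16710 to 17990 against 21250 to 22000, again without overlap, beside the lower Itga8. The part of these shifts in the values of the basement membrane genes was not tested. Among the ureteric epithelium markers 1 of 10 was called, Wnt11 at -0.76 (adjusted p = 0.0408 in limma), against the direction of most of that list. At an unadjusted p below 0.05 in limma 7 were higher and 1 lower, and 7 were above and 3 below 0 on all 3 arrays. The median of that list was 0.35 and its sum, 41540 to 54140 against 34180 to 39780, was higher in the Fgfrl1-/- pools. The ureteric marker Ret was not above background on any array.

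Markers of the cell types known for Lama2 and Lama4 were checked too. Of 10 skeletal muscle markers 0 were called (2 higher at an unadjusted p below 0.05 in limma), their sums overlapped (2953 to 4869 against 2642 to 4642), and the largest mean was that of Myh3, at 0.77 ± 1.0 (SD, n = 3, adjusted p = 0.384 in limma). The ratios of Myh3 were -0.06, 1.88 and 0.48, and without array 2 the mean was 0.21. Without array 1, in a fit that called 3494 of all probes higher, it was 1.18 (adjusted p = 0.00212 in limma). Of 9 endothelial markers 0 were called (0 at an unadjusted p below 0.05), their sums overlapped (11490 to 15800 against 11940 to 14140), and the largest mean was that of Sox17, at 0.18 (adjusted p = 0.641), whose sign turned under median centring. Of 10 neural markers 0 were called (2 lower at an unadjusted p below 0.05), with the largest mean in Elavl4, at -0.71 (adjusted p = 0.0906 in limma). Their sums, 3983 to 4329 against 4772 to 5760, were lower in the Fgfrl1-/- pools without overlap. Bright probes weigh most in such a sum, and the brightest neural ones were those of Ngfr, at -0.32, and Elavl4. The median of the neural list was -0.10, and 6 of its 10 markers were well above background in both channels on every array. Of 9 erythroid markers 0 were called (1 lower at an unadjusted p below 0.05), with the largest mean in Hba-x, at -0.47 (adjusted p = 0.245 in limma). Their sums, 71430 to 80260 against 80550 to 87930, were also lower without overlap, by a narrow margin. The part of these lower sums in the values of the basement membrane genes was not tested.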

How the data were processed

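Kidney rudiments of 3 pairs of pools were measured on 3 2-colour Agilent arrays. The authors deposited scanner output per array, read with Feature Extraction 9.5.3.1 (array 1) or 10.5.1.1 (the other arrays), which holds intensity values, flags and a log10 ratio for every spot. Log2 ratios were deposited as well, in a table made in R by steps not given in the sources used here. Its direction, Fgfrl1-/- over wildtype, was found against the scanner ratios (r = -0.705 to -0.718 with wildtype over Fgfrl1-/-). The medians of this table were -0.018, 0 and 0.003, and how it was scaled is not known.

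Median intensities were corrected with normexp (offset 50) and loess in limma 3.58.1 under R 4.3.3, with control spots at weight 0. Between 107 and 138 spots per array with an outlier flag were left out, spots of a probe were averaged, and the ratios were fitted with an intercept only (lmFit, eBayes, 2-sided) and adjusted by Benjamini-Hochberg over 41174 probes. The pools of 1 array are paired by their ratio. The pipeline was tested on simulated data. Of all probes, 57.1% to 80.2% per channel and array were well above background. The number of arrays limits the precision, and no source says that the pools came from separate litters, so p-values measure the spread between these pools.

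The members and gene lists were chosen with earlier results of these data known. Named genes were every member, Fgfrl1 and, from each list, the genes called or, failing that, the one with the largest mean. All 10 member names are current RefSeq symbols, and positions are those of the files (mm8).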

Additional observations from a re-analysis of the deposited data

How the results depend on the processing

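The calls rest on 3 arrays. The reported setting called 164 probes lower and 119 higher, with 0 and 1 among the members. Leaving out 1 array in turn gave 0 to 4172 lower and 0 to 3494 higher over all probes, and 0 to 2 lower and 0 to 3 higher among the members. The high counts came without array 1, and the zeros without array 2 (1747 lower and 1965 higher at an unadjusted p below 0.05 in limma) or array 3 (1602 and 1539). With the slide as a fixed block the counts were 4649 and 5632, with 1 and 5 among the members. That fit leaves 1 residual comparison, arrays 2 and 3 of the same slide. The slide as a random block could not be fitted.

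Most other settings that moved the counts by over 1.5 times gave fewer calls. Over all probes 0 lower and 0 higher were called in limma with a normexp offset of 0 (2458 and 2394 at an unadjusted p below 0.05) or with the scanner's ratio (3253 and 2865). The counts were 91 and 2 with median centring, 60 and 22 with quantile normalization, 34 and 7 with dim probes left out (24902 probes) and 32 and 4 with the authors' table. Without background subtraction 72 were higher, and with the intraspot correlation, which raised the counts, 226. Under each of these settings except the last, 0 members were called higher, with 1 to 4 at an unadjusted p below 0.05. Without the pairing of the pools on an array (no replicate block), 19 probes were lower, 3 higher and 0 members called, and Lamb2 had an adjusted p of 0.276.

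Median centring moved the median of the 10578 probes with a log2 signal over 9 from -0.00023 to -0.30, and that of the members' brightest probes to -0.28. Relative to that shift Agrn, at -0.28, and Lama5, at -0.025, were not below other bright probes, and Nid1 was at -0.38.

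Signs turned only for probes whose reported means were not called. Lama1 probe 1 was at -0.062 with the scanner's ratio, -0.064 with median centring, -0.00085 with quantile normalization, -0.046 for the mean of the gene's probes, -0.030 in the authors' table and -0.054 with the slide block, and from -0.069 to 0.20 with 1 array left out. Nid1 was at -0.056 with quantile normalization and -0.0067 in the authors' table, and from -0.057 to 0.070 with 1 array left out. Lamc1 was at 0.014 with the slide block and from -0.12 to 0.015 with 1 array left out. Lama4 probe 3 was at -0.048 with the scanner's ratio and -0.039 with median centring. The dim Lama4 probe was at -0.0053 in the authors' table and from -0.026 to 0.14 with 1 array left out. The dim Lama2 probe was at -0.050 without background subtraction and -0.047 in the authors' table, and from -0.066 to 0.15 with 1 array left out. The dimmest Agrn probe was at 0.0057 with an offset of 0, 0 with the scanner's ratio and 0.088 with median centring, and from -0.16 to 0.044 with 1 array left out. Lama1 probe 2 ran from -0.24 to 0.0045 with 1 array left out. Sox17 was at -0.0023 with median centring and -0.013 for the mean of its probes, and from -0.032 to 0.32 with 1 array left out. The cause of these turns was not tested.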
